A study of Homo sapiens with 12 samples.

Results

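The genes described here are 10 members of the Notch signalling pathway: the receptors NOTCH1, NOTCH2 and NOTCH3, the ligands JAG1 and JAG2, the DNA-binding factor RBPJ and its coactivator MAML1, and the target genes HES1, HES4 and HEY1. They were taken by name from the 30574 loci in the expression files, and each of the 10 matched 1 locus. NOTCH3 was chosen from its measured values, and the comparison used for the choice is not stated. It is taken here as chosen on its FPKM differences from DMSO in BPA 2500 nM and E2. Its values are therefore given as a description, and nothing is read from its tests. The other 9 were selected by their place in the pathway, with earlier results of these data known. RNA came from IOSE80, 1 established immortalised line of human ovarian epithelial cells. All groups were exposed for 28 days: 3 libraries with 0.1% DMSO, 3 with bisphenol A (BPA, a plastics monomer with weak oestrogenic activity) at 0.25 nM, 3 with BPA at 2500 nM and 2 with E2 (the usual short name of estradiol). No solvent is named for BPA or E2, the labels state no dose for E2, and E2 replicate 3 was not analysed here. Whether replicates were separate cultures is not stated, and the p-values therefore reflect only the spread among these libraries, which may be technical.

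Notch receptors are cell-surface proteins that are cut when a ligand of the Jagged or Delta-like family on a neighbouring cell binds them. The freed intracellular part enters the nucleus and, with RBPJ and a Mastermind coactivator such as MAML1, switches on target genes, among them transcriptional repressors of the HES and HEY families. NOTCH3 is best known from smooth muscle cells and pericytes of blood vessels and is also studied in ovarian cancer.

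Levels are FPKM, which corrects fragment numbers for the length of the transcript and the size of the library, so that levels of different genes can be set side by side. FPKM totals lay between 206719 and 213663 per library, but read depth is unknown, and precision was taken from the spread between libraries. E2 replicate 2 stood slightly apart, with a median Pearson correlation of 0.976 with the other libraries against 0.979 to 0.983 for the rest. Of 12 ovarian surface markers, 6 had a mean under 0.1 FPKM, among them WT1, GATA4 and MSLN, which lay at or near 0 in every group. KRT18 (group means of 21.8 to 23.6 FPKM) and ALDH1A1 (97.6 to 116.3 FPKM) were present. In bulk RNA, fewer cells that express a gene and less RNA per cell cannot be told apart.

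NOTCH3, as chosen, was lower in every library of BPA 2500 nM and E2 than in any library of DMSO or BPA 0.25 nM. NOTCH1 and NOTCH2 were not called in any comparison. No other Notch gene passed the test in any comparison with DMSO, including the target genes HES1, HES4 and HEY1.

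NOTCH3 (locus ENSG00000074181) lies on the minus strand of chromosome 19 at chr19:15159038-15200995 (GRCh38), where GENCODE annotates no gene on the opposite strand. Its level was 6.90, 7.31 and 6.78 FPKM in the DMSO libraries and 6.61, 6.69 and 6.80 FPKM with BPA 0.25 nM. With BPA 2500 nM it was 5.40, 5.37 and 5.65 FPKM, and with E2 it was 5.37 and 4.95 FPKM. The libraries thus fell into a high set, DMSO and BPA 0.25 nM, and a low set, BPA 2500 nM and E2, with no overlap between the sets and overlap within each. The group means were 7.0 ± 0.278 FPKM in DMSO (SD, n = 3), 6.70 ± 0.0954 in BPA 0.25 nM (n = 3), 5.47 ± 0.154 in BPA 2500 nM (n = 3) and 5.16 ± 0.297 in E2 (n = 2). The change of the mean against DMSO was -4.2% in BPA 0.25 nM, -21.8% in BPA 2500 nM and -26.3% in E2.

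Differences were measured on the scale log2(FPKM + 1), which understates the change of low genes, and limma was run on the 12182 loci that reached an FPKM of 1 in 2 or more libraries. A locus was called at an adjusted p (Benjamini-Hochberg) under 0.05. Against DMSO, the log2 difference of NOTCH3 was -0.05 ± 0.05 (SE) in BPA 0.25 nM (adjusted p = 0.78), -0.30 ± 0.05 in BPA 2500 nM (adjusted p = 0.0241) and -0.38 ± 0.05 in E2 (adjusted p = 0.0309). The 95% intervals, not adjusted for the number of loci, ran from -0.16 to 0.05, from -0.41 to -0.20 and from -0.50 to -0.26. These 3 comparisons share the DMSO libraries. The share of all tested loci called was 0.0164% in BPA 0.25 nM (all called higher), 1.3% in BPA 2500 nM (0.402% higher, 0.895% lower) and 0.419% in E2 (0.164% higher, 0.254% lower), and all tested loci had a median difference of 0.00, -0.03 and -0.01. BPA 2500 nM and E2 were not called apart from each other at NOTCH3 (-0.07 ± 0.05, E2 minus BPA 2500 nM, 95% interval -0.19 to 0.05, adjusted p = 0.651), an interval that leaves room for differences of either sign; 0.041% of tested loci were called there.

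Both low groups were also set against BPA 0.25 nM, which shares no library with DMSO. The BPA 2500 nM and E2 libraries are the same as above, so this comparison is not separate from the choice of NOTCH3. The log2 difference of NOTCH3 was -0.25 ± 0.05 for BPA 2500 nM (adjusted p = 0.191) and -0.32 ± 0.05 for E2 (adjusted p = 0.139), and all libraries were lower in both, as at 12% and 16.9% of tested loci. These differences were not called, and the share of tested loci called there was 0.0657% and 0.0493%. The calls of NOTCH3 against DMSO also depended on single libraries. The call in BPA 2500 nM was lost when DMSO replicate 1 or 2, BPA 0.25 nM replicate 1 or any of the 3 BPA 2500 nM libraries was left out, with adjusted p between 0.05 and 0.112. The call in E2 was kept in 2 of 11 such fits, those without BPA 0.25 nM replicate 3 or E2 replicate 1. Without E2 replicate 2, the library that stood apart, the E2 difference was -0.33 (adjusted p = 0.0956).

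**Figure D1:**
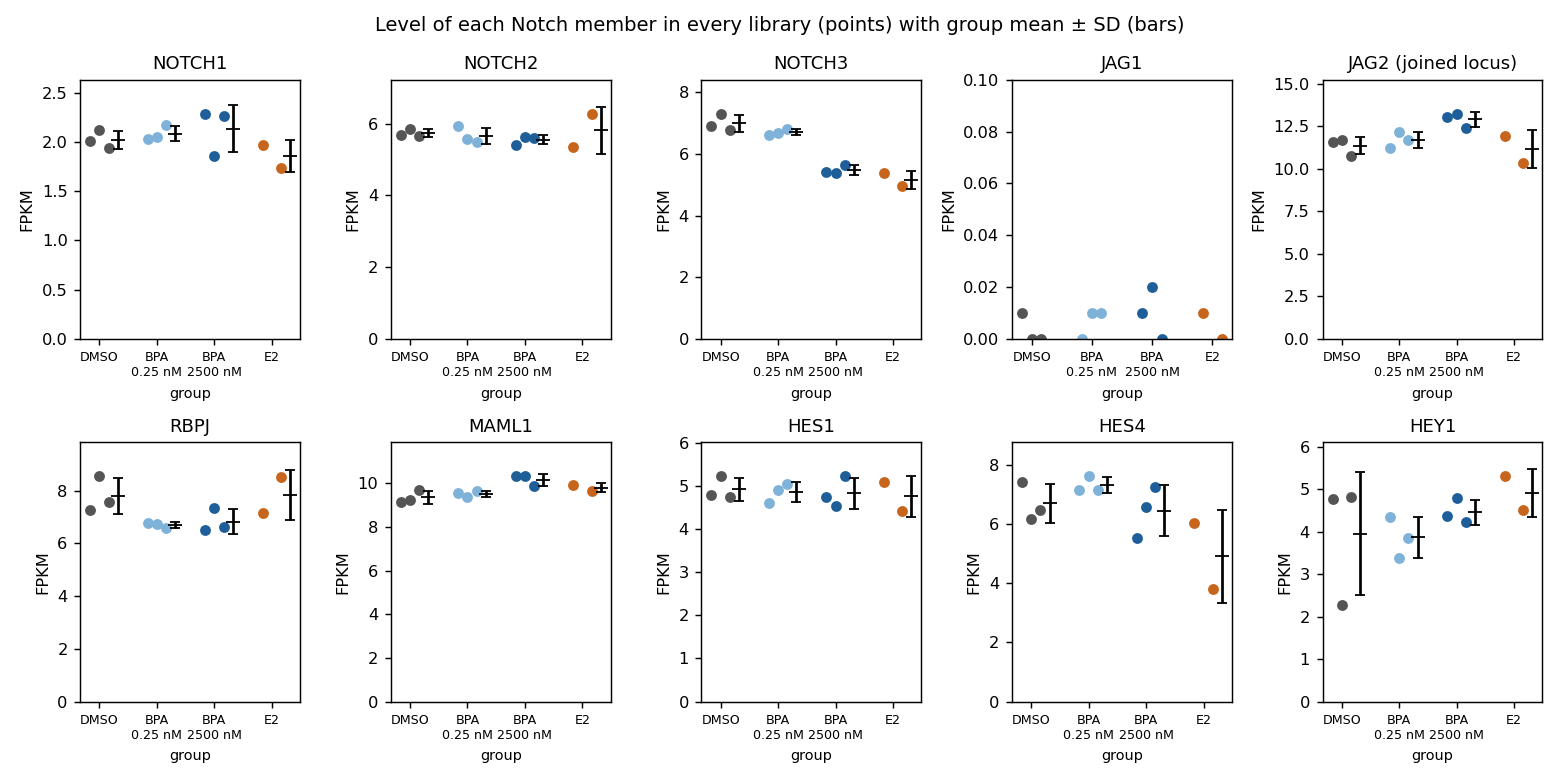
FPKM of the 10 Notch genes in each of the 11 libraries, 1 panel per gene with its own vertical axis from 0. Points are libraries, coloured by group, and the black mark with bars is the group mean ± SD (left out for JAG1, which is at or near 0). NOTCH3 sits between 6.61 and 7.31 FPKM in DMSO and BPA 0.25 nM and between 4.95 and 5.65 FPKM in BPA 2500 nM and E2.

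NOTCH2 (chr1:119911553-120069662, minus strand) measured 5.69, 5.85 and 5.65 FPKM in DMSO, 5.92, 5.57 and 5.49 with BPA 0.25 nM, 5.40, 5.62 and 5.61 with BPA 2500 nM, and 5.35 and 6.28 with E2. Its differences against DMSO were -0.02, -0.04 and 0.01 on the log2 scale, each with an SE of 0.06. The 3 libraries of BPA 2500 nM lay just under those of DMSO, as at 17.1% of tested loci, and the other groups overlapped DMSO. NOTCH2 has near-identical partial copies, the NOTCH2NL genes, and 1 of them shares a joined locus with NBPF10 at a mean of 1.97 FPKM, so how reads were split between NOTCH2 and its copies is uncertain. NOTCH1 (chr9:136494433-136546048, minus strand, with an antisense gene annotated opposite it) was the lowest of these receptors, at 1.94 to 2.12 FPKM in DMSO, 2.03 to 2.17 with BPA 0.25 nM, 1.86 to 2.29 with BPA 2500 nM, and 1.97 and 1.74 with E2. All groups of NOTCH1 overlapped DMSO, with log2 differences of 0.03, 0.05 and -0.08. Both E2 libraries of NOTCH1 lay below all of BPA 0.25 nM, as at 16.9% of tested loci (-0.11 ± 0.08, adjusted p = 0.554). The fourth receptor, NOTCH4, was named only in a locus joined with GPSM3 and stayed at or under 0.09 FPKM, too low to test.

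The share of NOTCH3 among the receptors moved with its level. NOTCH3 made up 47.4 ± 0.32% of the summed FPKM of the 3 receptors in DMSO (n = 3, 47.2% to 47.8%) and 46.4 ± 0.87% in BPA 0.25 nM (n = 3, 45.4% to 47.0%). The share was 41.6 ± 0.29% in BPA 2500 nM (n = 3, 41.3% to 41.8%), and 42.3% and 38.2% in the 2 E2 libraries. The ratio of NOTCH3 to NOTCH2 was 1.22 ± 0.026 in DMSO, 1.19 ± 0.061 in BPA 0.25 nM, 0.989 ± 0.029 in BPA 2500 nM and 0.894 ± 0.15 in E2. NOTCH3 was thus the more abundant of the pair in all 6 libraries of DMSO and BPA 0.25 nM, and about level with NOTCH2 in BPA 2500 nM. Summed over the 3 receptors, the level was 14.8 ± 0.47 FPKM in DMSO, 14.4 ± 0.13 in BPA 0.25 nM, 13.2 ± 0.34 in BPA 2500 nM and 12.8 ± 0.2 in E2. These shares and sums contain the gene chosen for its difference and carry no test.

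**Figure D2:**
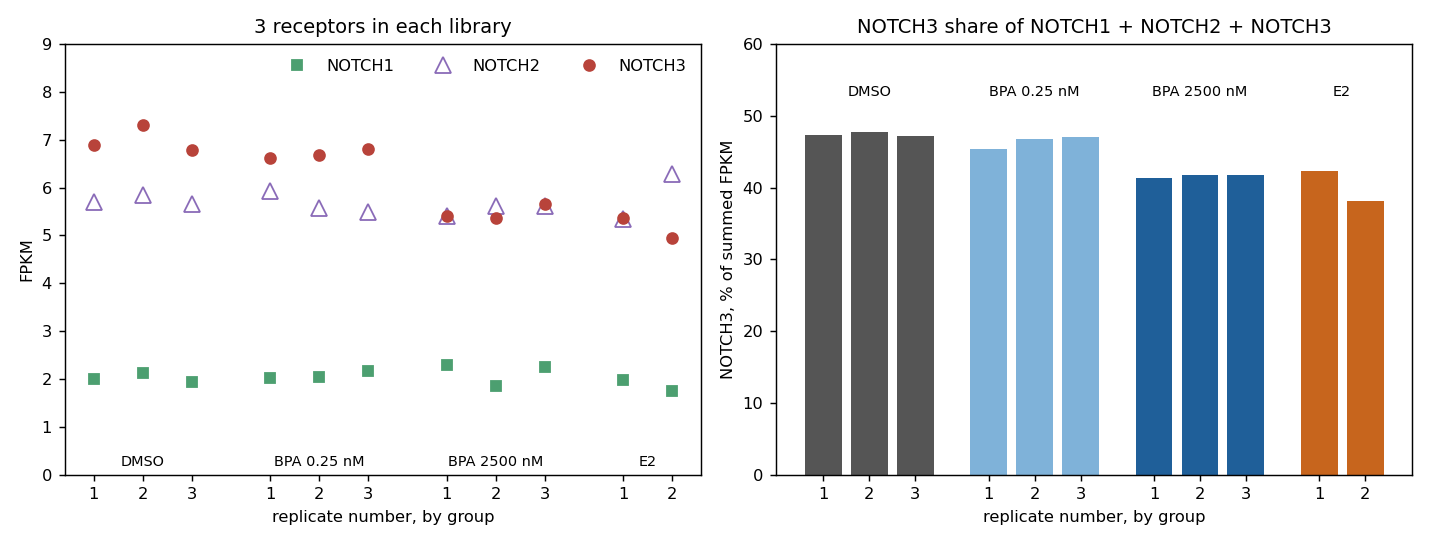
Left, FPKM of NOTCH1 (squares), NOTCH2 (open triangles) and NOTCH3 (circles) in each library. Right, NOTCH3 as a percentage of the summed FPKM of the 3 receptors in each library, with an axis from 0: DMSO libraries lie at 47.2% to 47.8% and BPA 2500 nM libraries at 41.3% to 41.8%.

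Of the ligands, the joined locus that names JAG2 had the highest level and JAG1 was close to absent. JAG1 (chr20:10637684-10673999, minus strand) was listed at 0 in 5 libraries and at 0.01 or 0.02 FPKM in the other 6, and was not tested. JAG2 was measured in a locus that also names NUDT14 and AL512356 (chr14:105140982-105181312, minus strand), so its value cannot be separated from that of NUDT14. That locus measured 11.58, 11.69 and 10.76 FPKM in DMSO, 11.19, 12.18 and 11.69 with BPA 0.25 nM, 13.05, 13.24 and 12.39 with BPA 2500 nM, and 11.93 and 10.34 with E2. All 3 libraries of BPA 2500 nM were above all of DMSO, yet the difference of 0.17 ± 0.06 was not called (95% interval 0.03 to 0.31, adjusted p = 0.204). All libraries were higher than DMSO at 9.54% of the tested loci in that comparison (9.01% in BPA 0.25 nM and 12.2% in E2). The differences in BPA 0.25 nM and E2 were 0.04 and -0.03. Among the other ligands of the list, DLL3 was the most abundant, at 2.75 ± 0.289 FPKM in DMSO (n = 3) with differences of -0.13, -0.21 and -0.07, none called. DLL1, DLL4 and DLK2 stayed under 1 FPKM in every library.

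The nuclear partners were well measured. RBPJ, which binds DNA and recruits either repressors or the activated receptor, lies at chr4:26163455-26435131 on the plus strand. It measured 7.25, 8.55 and 7.59 FPKM in DMSO, 6.76, 6.75 and 6.58 with BPA 0.25 nM, 6.51, 7.36 and 6.61 with BPA 2500 nM, and 7.17 and 8.52 with E2. RBPJ was lowest in BPA 0.25 nM, where all its libraries were below DMSO, as at 8.05% of tested loci. The difference there of -0.19 ± 0.08 was not called (95% interval -0.36 to -0.02, adjusted p = 0.518). In the other groups the difference was -0.17 ± 0.08 (BPA 2500 nM, adjusted p = 0.299) and 0.01 ± 0.09 (E2), with overlapping libraries. MAML1, the coactivator, lies at chr5:179732822-179777283 on the plus strand. MAML1 measured 9.12, 9.24 and 9.69 FPKM in DMSO, 9.57, 9.36 and 9.63 with BPA 0.25 nM, 10.31, 10.32 and 9.85 with BPA 2500 nM, and 9.94 and 9.66 with E2. It was higher in all BPA 2500 nM libraries than in DMSO, as at 9.54% of tested loci. The difference of 0.11 ± 0.04 was not called (95% interval 0.01 to 0.20, adjusted p = 0.235). The paralogs MAML2 and MAML3 were under 1 FPKM throughout, which leaves MAML1 as the most abundant Mastermind gene.

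The target genes are where a change in receptor activity is usually read, and upstream sequences of HES1 and HES4 are shown beside that of NOTCH3. These targets were picked because they hold the core of the RBPJ site, TGGGAA; the window of the target NRARP held none, and HEY1 was not searched. The RefSeq start of HES4 lies 75 bases inside the locus of the expression files, so its match begins just before the start of that locus. The sequences are the 250 bases before each gene's first base in RefSeq (GRCh38.p14), read on the gene's strand, for NOTCH3 at chr19:15200996-15201245 (minus) and HES1 at chr3:194135898-194136147 (plus). For HES4, 30 bases around the match are given, at chr1:1000156-1000185 (minus). Capitals mark TGGGAA.
NOTCH3: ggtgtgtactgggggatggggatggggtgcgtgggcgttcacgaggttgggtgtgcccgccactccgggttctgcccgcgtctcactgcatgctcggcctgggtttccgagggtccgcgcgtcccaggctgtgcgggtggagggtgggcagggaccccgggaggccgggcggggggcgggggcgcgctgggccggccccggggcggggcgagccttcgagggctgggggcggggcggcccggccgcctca
HES1: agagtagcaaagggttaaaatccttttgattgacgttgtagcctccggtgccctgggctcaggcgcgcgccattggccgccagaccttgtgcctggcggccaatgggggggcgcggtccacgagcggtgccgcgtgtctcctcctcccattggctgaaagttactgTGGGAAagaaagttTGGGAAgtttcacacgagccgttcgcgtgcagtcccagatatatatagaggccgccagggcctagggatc
HES4: ctggggcgagtgTGGGAAagaatgcggagc
HES1 held TGGGAA at 84 and 70 bases before its start and HES4 at 76 bases before its RefSeq start, all on the gene's own strand, whereas the NOTCH3 window held none on either strand. TGGGAA was present on 1 strand or the other in 20.8% of 34788 RefSeq promoter windows of that length. Its longer form CGTGGGAA, which contains it, was present in 0.722% and in none of the 3 windows shown. The HEYL window held CGTGGGAA, as did the window at chr4:26319496-26319745 of another RBPJ start. CACNAG, a site bound by HES factors, was found once in the NOTCH3 window, 211 bases before the start, 3 times in the HES1 window (165 bases before on the opposite strand, 132 and 58 on the same strand), not in the HES4 window, and in 32.0% of all windows. A match to these letters is a description of the sequence and does not show that a factor was bound.

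HES1 (chr3:194136148-194138732) measured 4.79, 5.22 and 4.73 FPKM in DMSO, 4.61, 4.91 and 5.05 with BPA 0.25 nM, 4.73, 4.53 and 5.22 with BPA 2500 nM, and 5.09 and 4.42 with E2. All groups overlapped, and the differences against DMSO were -0.01, -0.02 and -0.04, each with an SE of 0.07 or 0.08. The 95% intervals of HES1 reached from -0.17 to 0.14 in BPA 0.25 nM, from -0.17 to 0.13 in BPA 2500 nM and from -0.21 to 0.13 in E2, so a difference of the size seen at NOTCH3 lay outside the interval in BPA 2500 nM and E2. HES4 (chr1:998962-1000172, minus strand) measured 7.44, 6.19 and 6.50 FPKM in DMSO, 7.16, 7.63 and 7.17 with BPA 0.25 nM, and 5.55, 6.60 and 7.25 with BPA 2500 nM. With E2 it measured 6.04 and 3.81 FPKM, both below DMSO. The E2 difference of HES4 was -0.40 ± 0.15 and was not called (95% interval -0.74 to -0.06, adjusted p = 0.252). It rested on E2 replicate 2, since without that library the difference was -0.13 (adjusted p = 0.731), and without E2 replicate 1 it was -0.68 (adjusted p = 0.0495). All libraries of E2 were lower than DMSO at 16.2% of the tested loci.

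HEY1 (chr8:79764010-79767857, minus strand) had a wide spread within DMSO. It measured 4.77, 2.28 and 4.82 FPKM in DMSO, 4.36, 3.39 and 3.86 with BPA 0.25 nM, 4.38, 4.79 and 4.22 with BPA 2500 nM, and 5.31 and 4.51 with E2. DMSO replicate 2 was the low library. The differences were 0.02, 0.19 and 0.30, with SEs of 0.20 to 0.22 and intervals that spanned 0, so at this spread changes of the size seen at NOTCH3 could not be detected at HEY1.

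In DMSO the members ranked, from the highest mean FPKM, JAG2 (in the locus joined with NUDT14), MAML1, RBPJ, NOTCH3, HES4, NOTCH2, HES1, HEY1, NOTCH1 and JAG1. Libraries of RBPJ and NOTCH3 overlapped, as did those of NOTCH3 and HES4 and those of HES1 and HEY1, and the other neighbours in the order did not. In BPA 2500 nM, NOTCH3 (5.47) stood below HES4 (6.47) and beside NOTCH2 (5.54), and its libraries overlapped those of both.

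Of the 10 members, 9 could be tested, all with at least 1 FPKM in every library. NOTCH3 was called lower in BPA 2500 nM and in E2, in which 0.895% and 0.254% of tested loci were called lower. With NOTCH3 set aside, 0 of 8 were called against DMSO in any group by limma, while 1, 2 and 1 of them had an unadjusted p under 0.05, as did 1110, 2098 and 1878 of the 12182 tested loci. Those members were RBPJ in BPA 0.25 nM, JAG2 and MAML1 in BPA 2500 nM, and HES4 in E2. Their median difference was 0.02, 0.01 and -0.01, against 0.00, -0.03 and -0.01 over all tested loci.

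**Figure D3:**
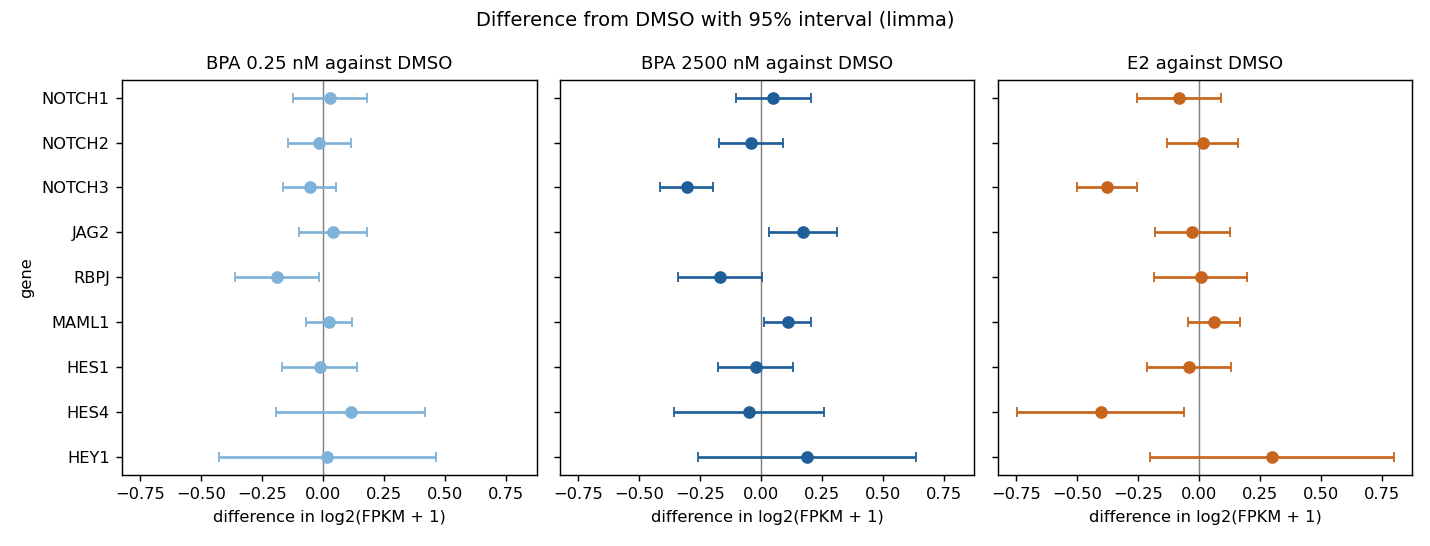
Differences against DMSO on the scale log2(FPKM + 1) for the 9 tested Notch genes, with 95% intervals that are not adjusted for the number of loci tested, 1 colour per treatment. For NOTCH3 the interval lies below 0 in BPA 2500 nM (-0.41 to -0.20) and in E2 (-0.50 to -0.26), and the intervals of NOTCH1, NOTCH2, HES1 and HEY1 include 0 in all treatments.

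The wider pathway was followed in a list of 71 Notch genes ordered by role, which includes the 10 members. A locus was found for 69 of them (none for DLK1 and HES5), 52 were tested and 17 were too low. NOTCH3 was the only one called: 0 of 52 in BPA 0.25 nM, 1 in BPA 2500 nM and 1 in E2, or 1.92% of the list in the last 2 against 1.3% and 0.419% of all tested loci, a share of 1 gene. At an unadjusted p under 0.05 there were 4, 10 and 8 of 52, as were 1110, 2098 and 1878 of the 12182 tested loci. Without NOTCH3 the counts were 4, 9 and 7 of 51. The list's median difference was -0.01 in BPA 0.25 nM, -0.03 in BPA 2500 nM and -0.02 in E2, and 40.4%, 32.7% and 42.3% of its differences were positive, against 50.3%, 42.8% and 48.1% over all tested loci. All libraries were lower than DMSO at 15.4%, 23.1% and 25.0% of the list, and at 8.05%, 17.1% and 16.2% of all tested loci. Without NOTCH3, the gene chosen for its difference, 41.2%, 33.3% and 43.1% of the list's differences were positive. All libraries were then lower than DMSO at 15.7%, 21.6% and 23.5% of the list.

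By role, the enzymes that glycosylate the receptors (3 tested) were led by POFUT1, at 3.79 ± 0.234 FPKM in DMSO (n = 3), and RFNG, at 3.14 ± 0.306. The differences of these enzymes lay between -0.15 and 0.18, the highest for POGLUT1 in E2 (0.18 ± 0.24), with none called. The proteases that cut the receptor (9 tested) were led by the gamma-secretase subunits APH1A, at 38.4 ± 5.05 FPKM in DMSO, and NCSTN, at 30.4 ± 1.2. NCSTN differed from DMSO by -0.04, -0.01 and -0.02 and APH1A by 0.16, 0.03 and -0.04, none called. The ubiquitin ligases and endocytic regulators (10 tested) were led by MIB1, which activates ligands, at 14.5 ± 1.3 FPKM, and ITCH, which marks receptors, at 13.1 ± 2.57. MIB1 was lower than DMSO in all BPA 2500 nM libraries, as at 17.1% of tested loci (-0.24 ± 0.09, adjusted p = 0.214). ITCH differed by -0.24 there (adjusted p = 0.642). None of the 10 was called against DMSO.

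Among activating nuclear partners (7 tested), SNW1 was the most abundant at 42.4 ± 2.1 FPKM in DMSO, with differences of -0.02, 0.00 and 0.00. KAT2A, an acetyltransferase, was measured in a locus joined with RAB5C and cannot be separated from it. That locus stood at 20.2 ± 1.37 FPKM in DMSO and at 29.28 and 26.53 FPKM in E2, a difference of 0.45 ± 0.11 that was not called (adjusted p = 0.0859). Repressing partners (10 tested) were led by the deacetylase HDAC1 (66.8 ± 0.986 FPKM in DMSO, differences of 0.03, -0.03 and 0.02) and the corepressor NCOR1 (16.0 ± 1.05 FPKM, -0.03, -0.09 and -0.12). Of the targets (8 tested), CCND1, which drives the cell cycle, was the most abundant at 33.0 ± 1.16 FPKM in DMSO, with differences of -0.03, 0.05 and 0.12, none called.

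**Figure D4:**
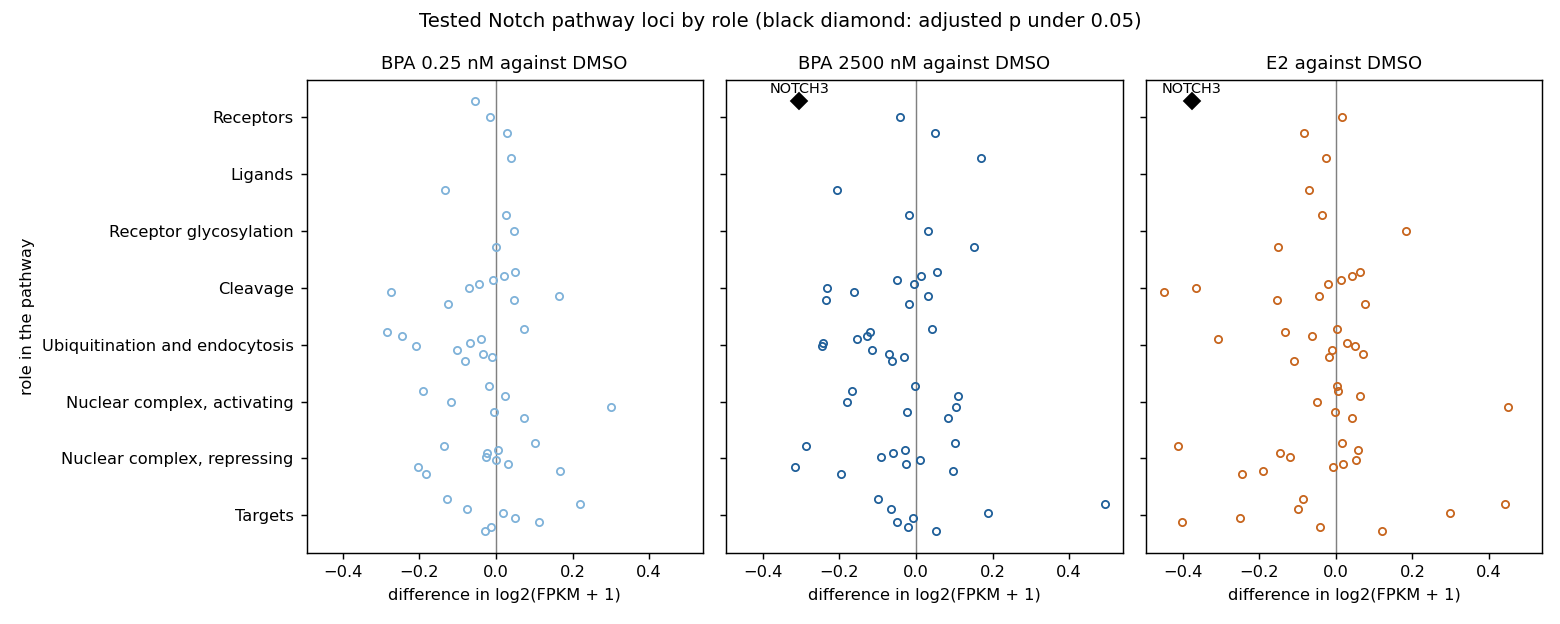
Differences against DMSO on the scale log2(FPKM + 1) for the 52 tested genes of the Notch list, by role, in 1 panel per treatment. Points are genes, and NOTCH3, at -0.30 in BPA 2500 nM and -0.38 in E2, is the only gene that was called.

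Of the other genes of the list, TLE2, CIR1 and FURIN came close to the threshold, and MYC did not but is given beside them. All were picked after their values were seen. Other genes of the list with differences as large, such as CTBP2 in BPA 2500 nM, were not picked. TLE2, a Groucho-family corepressor, measured 15.50, 14.84 and 15.71 FPKM in DMSO, 14.06, 14.65 and 12.98 with BPA 0.25 nM, 12.58, 11.29 and 13.37 with BPA 2500 nM, and 11.51 and 11.05 with E2. Every treated library of TLE2 lay below every DMSO library, and the differences were -0.14 (adjusted p = 0.572), -0.29 ± 0.07 (adjusted p = 0.0688) and -0.41 ± 0.07 (adjusted p = 0.0539). CIR1, a corepressor that binds RBPJ, was 7.17 ± 0.362 FPKM in DMSO (n = 3), 6.19 ± 0.236 in BPA 0.25 nM (n = 3), 6.13 ± 0.147 in BPA 2500 nM (n = 3), and 5.65 and 6.14 in the E2 libraries. CIR1 too was below DMSO in every treated library, with differences of -0.18, -0.20 and -0.24 (adjusted p = 0.429, 0.108 and 0.0928). Over all tested loci, all libraries were lower than DMSO at 8.05% in BPA 0.25 nM, 17.1% in BPA 2500 nM and 16.2% in E2. The share lower in all 3 treatments was not computed. FURIN, the protease that makes the first cut in the receptor, was 13.0 ± 0.936 FPKM in DMSO, 12.3 ± 0.473 in BPA 0.25 nM and 10.9 ± 0.91 in BPA 2500 nM (n = 3 each), and 10.35 and 9.33 in E2. Its differences were -0.07, -0.23 and -0.37 (adjusted p = 0.807, 0.152 and 0.0755), and its libraries overlapped DMSO in BPA 0.25 nM alone. MYC, a target in some cell types, lay the other way. It was 2.95, 3.31 and 1.76 FPKM in DMSO and 3.40, 3.74 and 2.55 with BPA 0.25 nM. With BPA 2500 nM it was 4.18, 3.86 and 4.2 FPKM, and with E2 it was 4.26 and 3.56 FPKM. The differences of MYC in BPA 2500 nM and E2, 0.49 ± 0.16 and 0.44 ± 0.18, were not called (adjusted p = 0.176 and 0.295).

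The 5 single-gene loci whose levels tracked NOTCH3 most closely over the 11 libraries, among 9725 compared, were MARCH9 (Pearson r = 0.968), LRP1 (0.963), RFX5 (0.960), PNRC1 (0.950) and ARHGEF40 (0.946). MARCH9 stood under 1 FPKM in BPA 2500 nM (0.747 ± 0.0666, n = 3) and in E2 (0.69 ± 0.0141, n = 2). It therefore passed the filter only through libraries of DMSO and BPA 0.25 nM, the groups in which NOTCH3 was also higher. LRP1, a large endocytic receptor, measured 3.76 ± 0.21 FPKM in DMSO, 3.33 ± 0.0603 in BPA 0.25 nM, 2.88 ± 0.0981 in BPA 2500 nM (n = 3 each) and 2.65 ± 0.12 in E2 (n = 2). RFX5, a transcription factor of MHC class II genes, stood at 24.0 ± 0.121, 23.1 ± 0.595, 20.8 ± 0.291 and 20.4 ± 0 FPKM in the same order. Within the Notch list the closest were TLE2 (r = 0.881), FURIN (0.875) and MIB2 (0.871), while NOTCH2 (-0.03) and NOTCH1 (0.296) did not track NOTCH3. MIB2 reached 1 FPKM in 4 of the 11 libraries, each from DMSO or BPA 0.25 nM, so it too passed the filter only through those groups. These correlations describe 11 libraries that share 4 treatment groups, and so any loci that differ between the same groups will correlate. Among tested genes near NOTCH3 on chromosome 19, SYDE1, ILVBL and AKAP8 were not called in any comparison with DMSO.

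Because NOTCH3 is a gene of mural cells, markers of smooth muscle and pericytes were summed beside it. Of 8 such markers 7 had a locus and 3 were tested (CSPG4, ACTA2 and CNN1), and PDGFRB, MYH11 and DES had means under 0.1 FPKM. The summed level was 28.98 to 31.19 FPKM in DMSO, 28.93 to 30.86 in BPA 0.25 nM, 25.82 to 26.70 in BPA 2500 nM and 26.23 to 29.04 in E2. CNN1, an actin-binding protein, was 5.67 ± 0.384 FPKM in DMSO, 5.12 ± 0.191 in BPA 0.25 nM, 4.29 ± 0.0862 in BPA 2500 nM (n = 3 each) and 4.47 ± 0.707 in E2 (n = 2). Its differences of -0.12, -0.33 and -0.29 were not called (adjusted p = 0.646, 0.0618 and 0.135). In the same order, CSPG4 differed by 0.03, -0.09 and -0.12 (adjusted p = 0.901, 0.321 and 0.281). ACTA2 differed by -0.0045, -0.21 and -0.06 (adjusted p = 0.993, 0.189 and 0.767). Of the other markers, COL3A1 (mesenchymal, -0.40 ± 0.05, adjusted p = 0.00591) and ALDH1A1 (ovarian surface, -0.25 ± 0.05, adjusted p = 0.048) were called lower in BPA 2500 nM. Neither was called in E2. The other tested mesenchymal markers, VIM (-0.05) and PDGFRA (0.00, in a locus joined with FIP1L1), were not called in BPA 2500 nM. Nor were the ovarian surface markers KRT8 (-0.13), KRT18 (-0.09) and NR2F2 (-0.03). Of granulosa markers 4 of 5 had a locus and 2 were tested, and their sum was 8.34 to 10.31 FPKM in DMSO, 8.27 to 9.44 in BPA 0.25 nM, 9.08 to 9.31 in BPA 2500 nM and 6.89 to 8.56 in E2. FOXL2 stood at group means of 6.03 to 7.04 FPKM, and CYP19A1 was at or near 0. INHA was lower in both E2 libraries than in DMSO, as at 16.2% of tested loci (-0.40 ± 0.16, adjusted p = 0.28). Endothelial markers with a locus (2 of 6, CDH5 and ERG) stayed at or under 0.01 FPKM in sum. Leukocyte markers (3 of 6, PTPRC, LST1 and CSF1R) stayed at or under 0.08, leaving out CD68, which was measured only in a locus joined with EIF4A1 and SENP3 (group means of 44.6 to 47.2 FPKM). The part of the mural, granulosa, COL3A1 and ALDH1A1 differences in the level of NOTCH3 was not tested.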

How the data were processed

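RNA of 11 IOSE80 libraries was analysed. The authors deposited 1 FPKM value per locus and library, with no counts. HISAT, UMI-tools, StringTie and edgeR are named in the submitters' processing notes, without versions or settings. No source used here states the strandedness, and antisense and joined loci are uncertain. The notes name hg19, but 74.9% of the 14123 Ensembl loci shared with GENCODE 29 match its GRCh38 start and end exactly, and positions are given on that build.

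The pathway and marker lists and the members were chosen with earlier results of these data known. Values were set to log2(FPKM + 1), and the 12182 of 30574 loci that reached an FPKM of 1 in 2 or more libraries were fitted with 1 mean per group over all 11 libraries in limma 3.58.1 (R 4.3.3, statmod 1.5.0; trend and robust settings, 7 residual and a median of 2.4 prior degrees of freedom). The two-sided p-values of each of 6 comparisons were adjusted separately (Benjamini-Hochberg). The procedure was tested on simulated data. Named were all members, every other list gene called against DMSO, the 2 most abundant genes of each role, and the 5 single-gene loci most correlated with NOTCH3; exceptions are marked. Alternatives were another pseudocount, filters, scaling, variance setting or set of samples, a replicate block, and leaving out each library. Motifs were searched on both strands of RefSeq promoter windows.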

Additional observations from a re-analysis of the deposited data

How the results depend on the processing

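NOTCH3 was lower than DMSO under all 18 alternatives in each treatment with a call, with log2 differences of -0.35 to -0.26 in BPA 2500 nM and -0.43 to -0.33 in E2, but its call held in 9 and 6 of them. It was lost in BPA 2500 nM with no filter (adjusted p = 0.0628), with only the groups compared (0.0795) and with a replicate block (0.0762), and in E2 likewise (0.0557, 0.292 and 0.109). Whether same-numbered libraries were paired is not stated. Their deviations correlated at -0.117 to 0.164, and 1 of 15 pairs exceeded 0.1. That pair was replicate 2 of DMSO and of E2, which also had the lowest FPKM totals (206774 and 206719) and the most loci above 0 (23696 and 22699). With 2 or 3 libraries per group, these correlations cannot settle whether same-numbered libraries shared a culture or run. Under the replicate block the loci called numbered 1 (2 without it) in BPA 0.25 nM, 38 (158) in BPA 2500 nM and 5 (51) in E2 against DMSO, and 3 (8) and 3 (6) in BPA 2500 nM and E2 against BPA 0.25 nM, with 0 Notch list genes in any.

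With no filter on low values, 39 loci were called in BPA 2500 nM and 33 in E2 against DMSO, 23 in E2 against BPA 0.25 nM and 19 in E2 against BPA 2500 nM (5 as reported), with 0 Notch genes against DMSO. With only loci of mean FPKM 5 or more, the counts were 0 in BPA 0.25 nM and 102 in BPA 2500 nM, and 2 Notch genes were called in E2, TLE2 (adjusted p = 0.0423) and NOTCH3; NOTCH1, HES1 and HEY1 then gave no value. With only the groups compared they were 9, 13 and 2 against DMSO, 3 in BPA 2500 nM against BPA 0.25 nM and 3 in E2 against BPA 2500 nM, with 0 Notch genes. Without trend and robust settings they were 1 in BPA 0.25 nM and 3 in BPA 2500 nM against BPA 0.25 nM, and with median-of-ratios rescaling 2 in the latter.

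Leaving out each library gave 0 to 9, 32 to 251 and 7 to 189 loci against DMSO, 2 to 10 and 2 to 212 in BPA 2500 nM and E2 against BPA 0.25 nM, and 4 to 56 in E2 against BPA 2500 nM. Of the Notch list it gave 0, 0 to 1 and 0 to 2 against DMSO, and 0 to 2 in E2 against BPA 0.25 nM, where HES4 and NOTCH3 were called without E2 replicate 1 (adjusted p = 0.0366 each). Dropping an E2 library leaves 1 there, assumed to vary like the other groups.

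Differences near 0 turned sign. Rescaling gave 0.0022 for NOTCH2 and 0.0199 for HES1 in BPA 2500 nM and 0.0033 for JAG2 in E2, and the block gave -0.0089 for RBPJ in E2. Without single libraries, BPA 0.25 nM ranged from -0.0434 to 0.0028 for NOTCH2, -0.0374 to 0.0233 for HES1 and -0.26 to 0.16 for HEY1. BPA 2500 nM ranged from -0.0701 to 0.0149 for HES1, -0.12 to 0.0418 for HES4 and -0.0864 to 0.33 for HEY1. E2 ranged from -0.0837 to 0.11 for NOTCH2, -0.12 to 0.0678 for JAG2, -0.12 to 0.0434 for HES1 and -0.10 to 0.12 for RBPJ. The cause of these shifts was not tested. Summing several loci per gene was not run, because no member had more than 1.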

Other observations

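Among 106 loci annotated to Notch signalling in the deposited files' own gene ontology columns, 66 were tested and 36 were also in the list used above. NOTCH3 was the only one called in BPA 2500 nM and in E2 against DMSO, or 1.52% of those tested, against 1.3% and 0.419% of all tested loci, and it is the gene that was chosen for its difference. The median difference over the 66 was -0.03 and -0.04, against -0.03 and -0.01 over all tested loci.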
